A study of Mus musculus with 14 samples.

Results

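Trimethylation of lysine 4 of histone H3 (H3K4me3) was compared between mouse embryonic stem (ES) cells given 4-hydroxytamoxifen (4-OHT) to delete Mll1 and untreated ES cells, by chromatin immunoprecipitation and sequencing (ChIP-seq). The comparison used 2 of the 14 libraries of the study, the untreated and the 4-OHT H3K4me3 library, with 1 library in each group. All peaks on the 19 autosomes and the X chromosome entered it, 52889 in untreated cells and 56396 after 4-OHT. The other libraries of the study mapped H3K4me1, H3K4me2 and Mll1, or held input DNA. Those of untreated and 4-OHT cells are used below only at the H3K4me3 regions, and cells grown with an inhibitor of Mll1 were not analysed here.

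Both groups were blastocyst-derived ES cells of strain C57BL/6J with the genotype Mll1fl/fl; Cre-ER TM, so the untreated cells carried the floxed alleles and the inducible Cre recombinase too. 4-OHT, the ligand that lets such a Cre enter the nucleus, was given at 5 µM for 9 days, or 3 passages. The medium held leukemia inhibitory factor (LIF), 5% serum and 15% serum replacement, and the cells grew on Matrigel without feeders. Chromatin was fixed with 1% paraformaldehyde for 10 min and precipitated with about 2 µg of antibody. The labels name no vehicle for the untreated cells. Deletion, 4-OHT itself and activity of the Cre therefore cannot be told apart in this comparison. Whether the 2 libraries came from parallel cultures is not given.

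Mll1, also named Kmt2a, is 1 of several enzymes that methylate H3K4 as part of complexes with Wdr5, Rbbp5, Ash2l and Dpy30. H3K4me3 typically marks the starts of genes, above all those in CpG islands, while H3K4me1 and H3K4me2 also mark enhancers and the flanks of starts. In ES cells, broad stretches of H3K4me3 are known from genes of cell identity, and many developmental genes carry H3K4me3 together with the Polycomb mark.

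Each library held a similar number of sequenced fragments after removal of duplicates. These are called filtered tags here and came to 25.3 M (M for 1000000 tags) in untreated cells and 26.4 M after 4-OHT. The redundant share of tags was 0.60 and 0.67, and the inputs held 36.6 M and 54.95 M filtered tags. Peaks covered 91.4 Mb of the genome in untreated cells and 105 Mb after 4-OHT, and held 82.4% and 87.5% of the filtered tags. Their median width was 1305 bp and 1343 bp. The wide end of the distribution differed more. Peaks over 10 kb numbered 87 in untreated cells and 314 after 4-OHT, and the widest spanned 22753 bp and 51204 bp. With 1 library per group there was no replicate check of any difference below. No test was made, and the intervals given with levels and shares are exact 95% intervals that cover counting error only.

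The gene to be deleted carried the same H3K4me3 level in both libraries. Kmt2a (gene ID 214162) lies at chr9:44803355-44881352 (mm10), and the region at its start held 107 tags/M in both libraries, that is, tags in the peaks for every 1000000 filtered tags of the library (Poisson interval 103 to 111 in each). Its width was 5232 bp in untreated cells and 5271 bp after 4-OHT. H3K4me1 there was 7.76 tags/M in untreated cells and 43.0 after 4-OHT, and H3K4me2 50.6 and 51.2. A region at the start does not show whether exons were removed, so it checks nothing about the deletion. ES cell markers were present in both lists, with a peak at the ends of 9 of 10 genes and none listed at Esrrb. Their summed level was 1129 tags/M in untreated cells and 1474 after 4-OHT. Of 7 fibroblast markers 3 had a peak, summing to 45.5 and 46.1 tags/M, and Col3a1, Dcn, Lum and Postn had none in either library. The 2 of 3 trophectoderm markers with a peak summed to 106 and 100 tags/M (Elf5 had none), and the 3 of 4 primitive endoderm markers to 162 and 156 (Gata4 had none). Of the 4 marker lists, that of ES cells thus differed most between the libraries.

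Peaks of the 2 lists that overlapped by at least 1 bp, directly or through other peaks, were joined into 1 region, which gave 47242 shared regions. A further 4331 regions had a peak in untreated cells only, called lost here, and 8805 had one after 4-OHT only, called gained. The lost peaks were 8.19% of the untreated list (Clopper-Pearson interval 7.96% to 8.43%), and the gained peaks were 15.6% of the 4-OHT list (15.3% to 15.9%). Both kinds were weak. Lost regions held a median of 30 tags and at most 111, against a median of 119 untreated tags in shared regions. Gained regions held a median of 38 tags and reached 2232. Only 1 lost region had 100 tags or more, against 548 gained ones. A peak present in 1 list alone shows that the other passed no threshold there, not that it held no tags.

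In shared regions, levels were compared as tags/M summed over the peaks of a region. Each library was counted within its own peaks only. Where a peak was narrower in a library, its tags beyond that peak are unknown and not part of the ratio. After 4-OHT, 1949 of the 47242 shared regions were 2-fold or more higher, 4.13% of them, and 479 were 2-fold or more lower, 1.01%. The median log2 ratio of 4-OHT to untreated tags was close to 0, at -0.004, so regions lay about evenly on both sides of equality. The central 90% of regions lay between -0.63 and 0.91 on the log2 scale, a range wider on the higher side. In chromatin of many cells, more cells with the mark and more of the mark per cell cannot be told apart. The lower regions were weak ones. Below a mean of 2 tags/M, 227 regions were higher and 240 lower. From 5 to 10 tags/M, 482 were higher and 16 lower, and none of the regions above 10 tags/M was 2-fold lower, while 210 of those from 10 to 20, 95 of those from 20 to 50 and 18 of those above 50 were higher. When only regions with a mean of 100 tags or more were counted, 1082 were higher and 28 lower.

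The higher regions lay mostly away from the ends of genes. A region was put at a gene end when it lay within 1 kb of either end of a protein-coding gene, otherwise in a gene body or between genes. At gene ends 177 of 15137 shared regions were higher (1.17%) and 50 lower (0.330%), and the central 90% of log2 ratios lay between -0.38 and 0.45. In gene bodies 1200 of 15728 were higher (7.63%) and 184 lower (1.17%). Between genes 572 of 16377 were higher (3.49%) and 245 lower (1.496%). Gene bodies thus held most of the higher regions. Gained peaks followed the same order. In gene bodies 25.7% of the 4-OHT peaks had no untreated peak (interval 25.1% to 26.2%), against 14.8% between genes (14.3% to 15.3%) and 3.03% at gene ends (2.77% to 3.31%). Lost peaks did not: they were 12.3% of the untreated peaks between genes, 9.77% in gene bodies and 1.65% at gene ends.

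**Figure D1:**
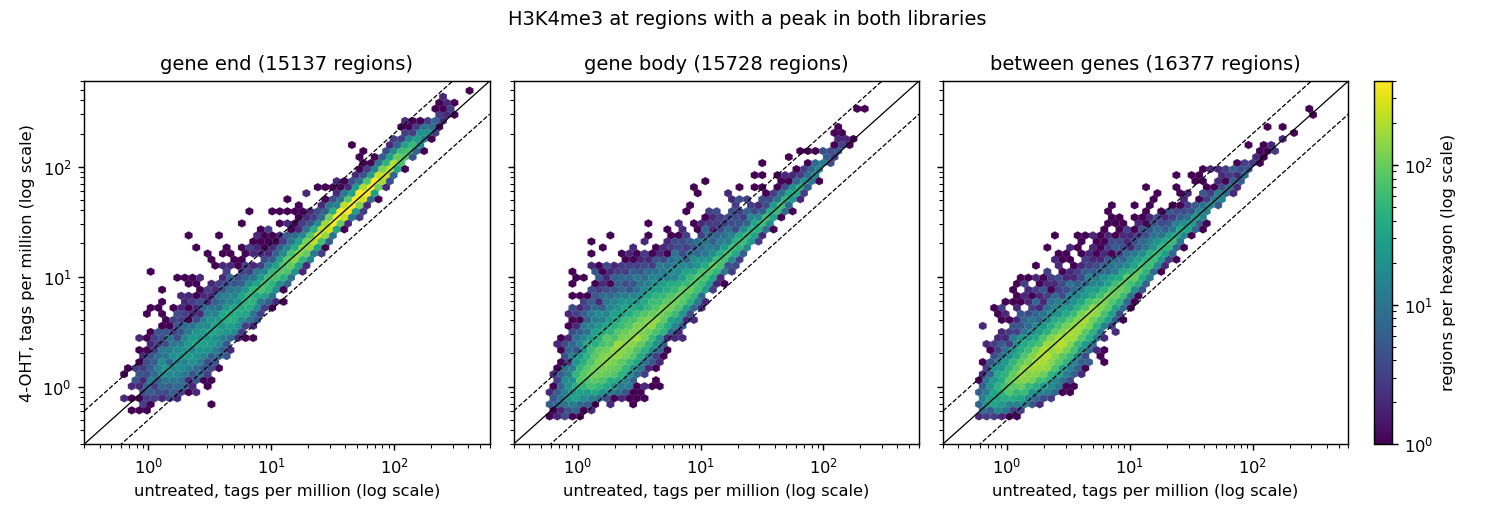
Levels of H3K4me3 in untreated cells (x axis) and after 4-OHT (y axis), both in tags/M on log scales, for the shared regions at gene ends (15137), in gene bodies (15728) and between genes (16377). Colour gives the number of regions per hexagon, the solid line equality and the dashed lines a 2-fold difference; the cloud of gene-body regions reaches farthest above the upper dashed line, where 1200 of them lie.

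Among gene ends, starts were the most alike in the 2 libraries. A start lay within 1 kb of 10662 shared regions, taken as a start in the RefSeq promoter table or the upstream end of a gene by the strand given there, and 61 of these were higher (0.572%) and 19 lower (0.178%). At 1412 regions near only a downstream end, 80 were higher (5.67%) and 15 lower (1.06%), shares closer to those of gene bodies than to those of starts. Their level was too, with an untreated median of 4.63 tags/M against 3.13 in gene bodies and 40.4 at starts. Starts and downstream ends were not compared at like level. Downstream ends also gained 266 regions and lost 88, while starts gained 116 and lost 116. The remaining 3063 regions lay at ends of genes without a start in that table, with 36 higher and 16 lower. This split was added after the data had been examined. With distance from the nearest gene end, the share of higher regions in gene bodies was 5.40% at 1 to 5 kb, 9.23% at 5 to 20 kb, 8.33% at 20 to 100 kb and 4.22% beyond 100 kb. Between genes it was 4.08%, 4.29%, 3.91% and 1.62% over the same distances. The order of gene bodies over regions between genes therefore held in each of the 4 distance classes. It also held from below 2 to 50 tags/M: from 5 to 10, for example, 11.1% of gene-body regions were higher against 5.14% between genes and 3.51% at gene ends. Among weaker regions gene ends were not the lowest. Below 2 tags/M the shares were 3.17% at gene ends, 3.07% in gene bodies and 1.63% between genes. From 2 to 5 tags/M they were 4.86%, 9.76% and 3.82% in the same order. Above 50 tags/M the shares were 1.32% in gene bodies (378 regions), 4.70% between genes (149 regions) and 0.122% at gene ends (4907 regions).

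**Figure D2:**
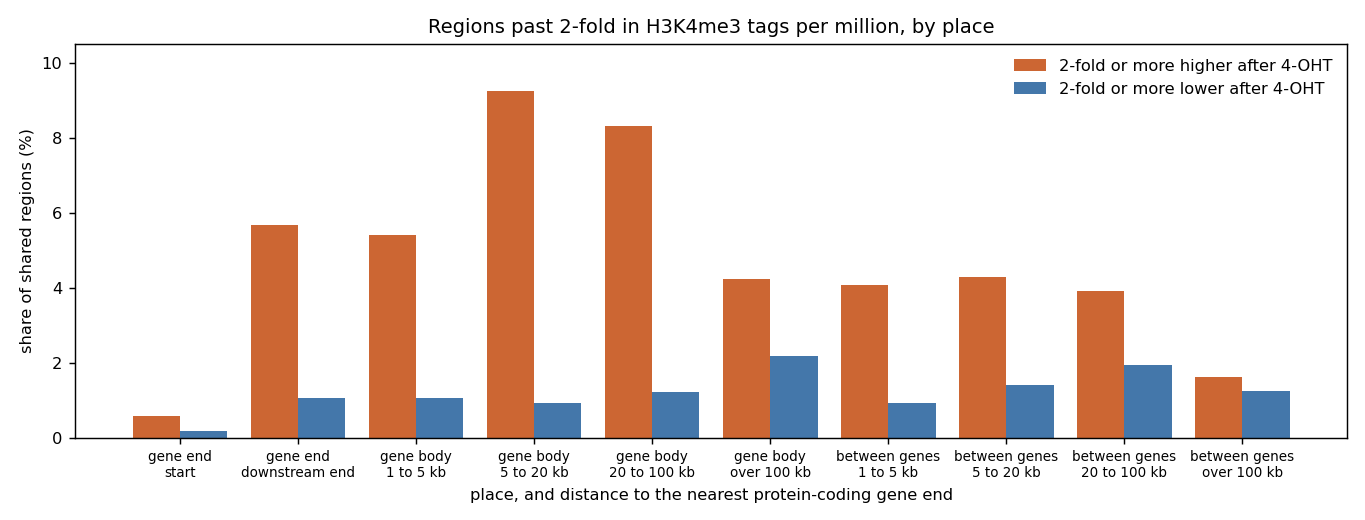
Share of shared regions (y axis, %) that were 2-fold or more higher (orange) or lower (blue) in H3K4me3 tags/M after 4-OHT, for starts, downstream ends and 4 distance classes in gene bodies and between genes (x axis). The orange bar is lowest at starts (0.572%) and highest in gene bodies 5 to 20 kb from an end (9.23%).

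Much of the difference was one of width. The log2 tag ratio of a region is the sum of its log2 width ratio and its log2 ratio of tags per kb of covered width. Over the 1949 higher regions the medians were 1.33 for tags, 0.81 for width and 0.58 for tags per kb, with the median width 1202 bp in untreated cells and 2321 bp after 4-OHT. Of these regions 34.9% were 2-fold wider and 8.36% had 2-fold more tags per kb, and 96.9% had more tags per kb to some degree. The last share is largely set by the choice of regions. A region 2-fold higher in tags and less than 2-fold wider must have more tags per kb. Over the 479 lower regions the medians were -1.15, -0.50 and -0.69, and the median width 1197 bp and 815 bp. When regions were scored by tags per kb alone, 171 of the shared regions were 2-fold higher and 74 lower, so higher regions were a smaller share of those called than by tags (1949 and 479). Neighbouring peaks were joined in some regions. In 1065 regions several untreated peaks, 2293 in all and up to 7 in a region, were met by 1 peak after 4-OHT, against 273 regions of the opposite kind. The joined regions had a median log2 ratio of 0.29 in tags, 0.24 in width and 0.08 in tags per kb, and 554 of them lay at gene ends. Of the 1949 higher regions 176 were joined in this way (9.03%), and 1763 had 1 peak in each library.

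The broadest regions shared a direction. At gene ends, the 415 regions with a mean width of 8 kb or more over both libraries had a median log2 tag ratio of 0.24 and width ratio of 0.21, and 93.7% of them had more tags/M after 4-OHT. Regions of 4 to 8 kb had a median of 0.08 (2435 regions, 74.0% above 0), those of 2 to 4 kb -0.008 (7950 regions, 47.1%) and those of 1 to 2 kb -0.06 (3710 regions, 38.5%). Scaling to the tags in peaks shifts every log2 tag ratio by -0.086. At gene ends that takes the median of the regions of 4 to 8 kb (0.077) below 0, while the median of those of 8 kb or more stays above 0. In gene bodies the same ladder ran from -0.06 below 1 kb to 0.33 at 4 to 8 kb and 0.49 at 8 kb or more (50 regions, 98.0% above 0), and 24.0% of the 367 regions of 4 to 8 kb were 2-fold higher. Between genes it ran from -0.11 to 0.47 at 4 to 8 kb (205 regions) and 0.40 at 8 kb or more (23 regions). No region with a mean width of 2 kb or more was 2-fold lower in any of the 3 places. A region that widened after 4-OHT also counts with a larger mean width, so part of this ladder is built into the classes. In tags per kb, the medians at gene ends lay between -0.07 and 0.02, and in gene bodies they ran from -0.06 to 0.19. This measure divides the tags by the width of the peaks in each library, so it is not free of width either.

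The 1200 higher regions in gene bodies lay in 866 genes, and 195 of these held 2 or more, together 529 regions or 44.1%. Those 195 genes held 1297 shared gene-body regions, of which 40.8% were higher. All 15728 shared gene-body regions lay in 6982 genes, and 76.7% of them in genes with 2 or more, so genes with several regions were common whatever their ratio. Whether the higher regions lay together more than their number gives was not tested. The 14 genes with 5 or more higher regions were led by Rbpms, which encodes an RNA-binding protein, with 10. Jarid2, a subunit of the Polycomb complex PRC2, Msi2, an RNA-binding protein, and Pitpnc1, a phospholipid transfer protein, held 8 each. None of the 14 held a lower region, but lower regions were few everywhere, 184 of the 15728 shared gene-body regions (1.17%). The 14 genes were named after their values had been seen.

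Jarid2 (chr13:44730774-44921643) showed what such a gene looked like. In untreated cells its start carried a peak of 11321 bp with smaller peaks along the gene, 17 in all, which covered 40.9 kb and held 308 tags/M. After 4-OHT 1 peak of 51204 bp ran from upstream of the start into the gene, and 18 peaks covered 114 kb and held 604 tags/M. A further 3 regions in its body lay at 49.9, 57.7 and 68.2 kb from the nearest gene end. They were among the 10 with the largest ratios of the regions away from gene ends with at least 200 tags over both libraries. The first held 1.27 tags/M over 938 bp in untreated cells and 19.6 over 7449 bp after 4-OHT, a log2 ratio of 3.95. The untreated tags in the rest of those 7449 bp are unknown, so the ratio does not compare equal stretches. Tet1 (chr10:62804570-62887469), which oxidises methylated cytosine, held no 2-fold higher region in its body but 6 gained ones. Its peaks held 207 tags/M over 20.9 kb in untreated cells and 489 over 65.0 kb after 4-OHT. At Msi2 the totals were 55.4 and 293 tags/M over 24.2 and 73.9 kb, and at Rbpms 261 and 418 over 48.4 and 74.99 kb. In these 4 genes the covered length differed by more than the tags per kb did.

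**Figure D3:**
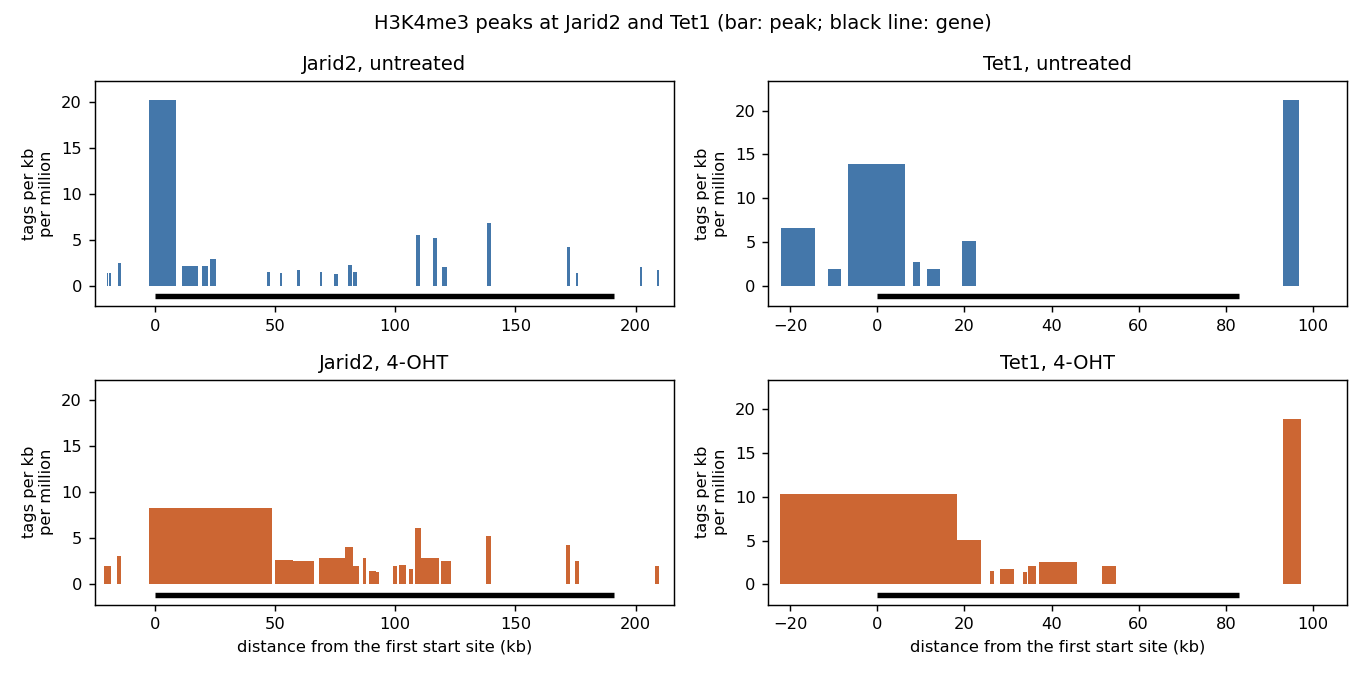
H3K4me3 peaks at Jarid2 (left) and Tet1 (right) in untreated cells (top, blue) and after 4-OHT (bottom, orange), by distance from the first start site of the gene in kb (x axis) and tags per kb and M filtered tags (y axis). Each bar is 1 peak at its true width and the black line is the gene; the peak at the Jarid2 start spans 11321 bp in the upper panel and 51204 bp in the lower one, and is lower in height there because its tags are averaged over its width.

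Regions away from gene ends were ranked by ratio only where both libraries together held at least 200 tags. The others with the largest ratios lay in Fam169a, Actn4, a cytoskeletal crosslinker, Rbpj, the DNA-binding partner of Notch, N4bp1, Gtf2ird1 and Gpbp1, and 11.4 kb from Klhdc8a. Their log2 ratios ran from 3.17 to 3.95 together with those of Jarid2, and 9 of the 10 lay in gene bodies. The region in Rbpj held 0.95 tags/M over 713 bp in untreated cells and 10.9 over 4271 bp after 4-OHT, and that in Actn4 1.31 over 876 bp and 15.8 over 6014 bp. The 10 regions with the smallest ratios, under the same minimum of 200 tags, held 6.06 to 8.55 tags/M in untreated cells, with log2 ratios of -1.82 to -1.13. That this level lies above the median of 3.01 for all shared regions away from gene ends follows from the minimum. They lay near Pdlim3, in and near Grip1, which encodes a synaptic scaffold (3 regions), in Il3ra, Calb2, Maml3 and Fetub, and near Rnf182 and Rgma. The region near Pdlim3 held 6.13 tags/M in untreated cells and 1.74 after 4-OHT.

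Of the gained regions away from gene ends, the one with the most tags lay in Sfi1 (chr11:3191706-3194869), with 84.5 tags/M over 3164 bp after 4-OHT. Those 21.0 kb from Ly6c2 and 1034 kb from Lrrc4c, in a stretch poor in genes, followed with 38.2 and 33.6 tags/M. All 3 regions also held a peak in the untreated Mll1 library, with 65.5, 46.8 and 42.2 tags/M, and none had an H3K4me1 peak in either library. No list of genome regions prone to artefactual signal was applied, and whether the tags there are specific to the antibodies was not tested. Next were regions in Nop58, with 22.8 tags/M over 6747 bp, and in Tet1, with 21.5 over 8548 bp. Among lost regions the most tags were in Nhsl1, with 4.39 tags/M in untreated cells, then in Cdh22 (3.80), and near Mlip (3.76), Scn11a (3.48) and Arhgef10l (3.29). The strongest lost region thus held about as much as a shared region of median level.

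H3K4me2, measured in separate libraries of the same groups, differed in the same direction as H3K4me3 at most of these regions. Its values were read at the untreated H3K4me3 peaks of a region, or at the 4-OHT peak for gained ones, from whole overlapping peaks. Regions under the same wide H3K4me2 peak therefore share a value and are not independent. Within each group the lists of both marks were called against inputs of the same tag count. At the 1772 higher regions away from gene ends, the log2 ratio of 4-OHT to untreated H3K4me2 tags/M had a median of 0.65 (quartiles 0.399 and 1.248) and was above 0 at 97.0% of the regions with a peak in both libraries. At regions that were neither higher nor lower the median was -0.04, above 0 at 44.1%. At the 429 lower regions it was -0.42, above 0 at 8.10%. Gained regions had a median of 0.45 and lost ones -0.25. For H3K4me1 the same classes gave 0.21, 0.06, -0.15, 0.23 and -0.10, a smaller spread, with gained regions highest. The H3K4me2 peaks were wider too at higher regions, by a median log2 ratio of 0.38.

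The higher regions also stood apart in untreated cells, before any 4-OHT. Their median untreated H3K4me1 level was 26.8 tags/M over peaks of 8409 bp, against 5.69 over 2680 bp at regions neither higher nor lower and 3.47 over 1966 bp at lower ones. An untreated H3K4me1 peak was listed at 95.8%, 77.0% and 81.6% of the 3 classes. Within regions of like H3K4me3 level the order was the same. From 2 to 5 tags/M the medians were 22.8 (854 regions), 5.15 and 3.61 (197 regions), and from 5 to 10 they were 35.3 (440 regions), 6.37 and 3.73 (13 regions).

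**Figure D4:**
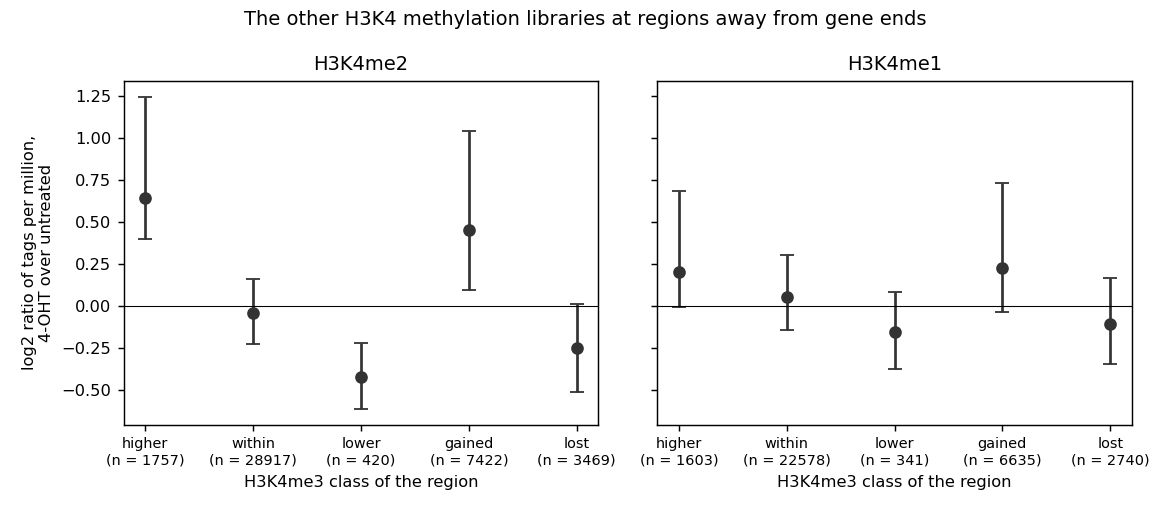
Log2 ratio of 4-OHT to untreated tags/M (y axis) of H3K4me2 (left) and H3K4me1 (right) at regions away from gene ends, by what H3K4me3 did there (x axis, with the number of regions that have a peak of the mark in both libraries). Points are medians and bars the quartiles over regions, not an error between samples; the H3K4me2 medians run from 0.65 at higher regions to -0.42 at lower ones.

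The deposited lists of the other marks lacked peaks at some of the most strongly marked genes. Over Rbpms the untreated H3K4me1 list held 9 peaks that covered 137 kb and held 498 tags/M, and the 4-OHT list held 0 peaks. Over Jarid2 the H3K4me1 total was 191 tags/M in untreated cells and 13.0 after 4-OHT, with 77.6 and 9.66 kb covered. H3K4me2 totals were also smaller after 4-OHT at both genes, 408 and 224 tags/M at Rbpms and 398 and 224 at Jarid2, and no H3K4me2 peak was listed after 4-OHT at the 3 Jarid2 regions named above. At Elobl, H3K4me1 stood at 93.8 tags/M and H3K4me2 at 40.4 in untreated cells, and neither mark had a peak listed after 4-OHT. No peak listed is not a level of 0, and the tags there are unknown. Of the 1200 higher gene-body regions, 93 had an H3K4me1 peak in the untreated list and none in the 4-OHT list (7.75%), against 236 of the 14344 that were neither higher nor lower (1.65%). Whether peaks are missing from the H3K4me3 lists in the same way was not tested.

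Mll1 itself was mapped in untreated cells, with weak enrichment: 3983 peaks held 0.277% of its filtered tags. A peak of Mll1 overlapped 1842 of the shared regions, and 98 of these were 2-fold higher (5.32%) and 4 lower (0.217%). Without an Mll1 peak the shares were 4.08% and 1.05%. The median log2 ratio was 0.07 with an Mll1 peak and -0.008 without. Of the untreated regions with an Mll1 peak 27 of 1869 were lost (1.44%), against 8.66% of the others. Lost regions were weak, with a median of 30 tags, and these lost shares were not compared at like level. Of the 1842 regions with an Mll1 peak 885 were gene ends in the highest of 5 classes of untreated H3K4me3 tags, so both sets were also compared within these 5 classes, at gene ends and away from them. In all 10 of these classes the median with an Mll1 peak was above that without. In the weakest class away from gene ends it was 0.50 (64 regions) against 0.11, and in the strongest 0.04 (106 regions) against 0.01. The median with an Mll1 peak was itself below 0, at -0.01, in the fourth class at gene ends (137 regions) and above 0 in the other classes. These signs depend on the scaling: scaled to the tags in peaks, the median of all gene ends was -0.084. The weakest classes at gene ends held only 6 and 11 such regions. Within classes regions with an Mll1 peak were mostly wider, in the strongest class at gene ends 4072 bp against 3208 bp in untreated cells. In all 10 classes both the median width ratio and that of tags per kb were higher with an Mll1 peak. In the strongest classes the tags per kb hardly differed. They were -0.050 against -0.055 at gene ends and -0.0379 against -0.0381 away from them, while width was 0.098 against 0.060 and 0.092 against 0.049. In the weakest class away from gene ends both differed, with 0.26 against 0.08 in width and 0.20 against 0.03 in tags per kb.

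For genes, the region with the most tags within 1 kb of either end was taken as the value. Of the 21627 protein-coding genes 15377 had a region, 15123 of them a shared one, 133 a lost one and 121 a gained one. The median log2 tag ratio of the 15123 genes was 0.006, with 7850 above 0. A 2-fold higher level was found at 67 genes, 0.443% of those with a shared region, and a 2-fold lower level at 39, 0.258%. A set of 25 lists with 367 genes was described against these values, and none of its genes lost or gained a region. The number of genes with a log2 ratio above 0 is given for most lists, though not for those named last. It is given as measured and, where it differs, in brackets first when scaled to the tags in peaks and then in tags per kb.

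The core pluripotency genes had the highest median of all lists. All 14 had more H3K4me3 tags/M after 4-OHT (13 and 13 of 14), with a median log2 ratio of 0.48, 0.20 in width and 0.22 in tags per kb, and 1 of them passed 2-fold. That gene was Dppa2, a regulator of early embryonic genes, with 35.6 tags/M in untreated cells (Poisson interval 33.29 to 37.98) and 72.1 after 4-OHT (68.9 to 75.4). L1td1, an RNA-binding protein of pluripotent cells, held 95.8 (92.0 to 99.7) and 170 (165 to 175) tags/M, and the growth factor Gdf3 48.1 and 83.9. Pou5f1, the master regulator Oct4, held 117.5 (113.4 to 121.8) and 172.5 (167.5 to 177.5) tags/M. Utf1, a chromatin protein and target of Oct4, held 81.4 and 123 tags/M, and Tdgf1, the Nodal co-receptor Cripto, 121 and 178. At each of these 6 genes the counting intervals of the 2 libraries lay apart. The smallest ratios were those of Zfp281 (0.05) and Sox2 (0.11, 252 and 271 tags/M). The width covered by peaks was larger at all 14 genes, though at Zfp281 an untreated peak of 7404 bp met 2 peaks of which the wider spanned 6556 bp. Several untreated peaks met 1 peak after 4-OHT at Pou5f1 (2), Nanog (3), Sall4 (4), L1td1 (2) and Foxd3 (5). At Nanog the level was 188 and 218 tags/M.

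The core genes were also read against other gene ends of high level. Over the 4831 regions above a mean of 50 tags/M that gave the value of a gene, the median log2 ratio was 0.05 and the 95th percentile 0.32. Of the 14 core genes, all above that level, 10 lay beyond that percentile. The list and its direction were known from earlier results of these data and are given as a description.

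The sequences just upstream of these starts are shown because the core genes lay together on the higher side, with Brdt, the gene of the lists with the lowest ratio, beside them. Each is the 200 bases before the RefSeq start on its own strand (GRCm38.p6), written 5′ to 3′, with each CG dinucleotide in capitals. They lie at chr4:98726554-98726753 (plus strand) for L1td1, chr7:139943656-139943855 (plus strand) for Utf1, chr17:35505832-35506031 (plus strand) for Pou5f1, chr9:110946159-110946358 (minus strand) for Tdgf1, chr6:122707289-122707488 (plus strand) for Nanog and chr5:107330994-107331193 (plus strand) for Brdt.
L1td1: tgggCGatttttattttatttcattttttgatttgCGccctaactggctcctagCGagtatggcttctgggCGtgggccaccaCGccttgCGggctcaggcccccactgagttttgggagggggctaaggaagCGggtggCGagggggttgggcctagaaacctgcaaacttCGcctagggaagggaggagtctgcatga
Utf1: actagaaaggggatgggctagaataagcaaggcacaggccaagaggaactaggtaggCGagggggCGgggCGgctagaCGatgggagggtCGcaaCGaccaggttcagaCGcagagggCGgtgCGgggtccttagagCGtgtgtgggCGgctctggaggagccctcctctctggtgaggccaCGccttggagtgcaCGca
Pou5f1: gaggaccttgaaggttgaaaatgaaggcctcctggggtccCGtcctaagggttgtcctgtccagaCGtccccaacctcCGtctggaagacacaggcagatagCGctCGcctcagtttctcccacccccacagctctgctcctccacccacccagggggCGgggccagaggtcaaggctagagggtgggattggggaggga
Tdgf1: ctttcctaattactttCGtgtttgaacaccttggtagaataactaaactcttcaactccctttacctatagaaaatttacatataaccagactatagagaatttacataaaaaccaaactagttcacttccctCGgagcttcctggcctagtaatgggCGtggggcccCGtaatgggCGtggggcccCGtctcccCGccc
Nanog: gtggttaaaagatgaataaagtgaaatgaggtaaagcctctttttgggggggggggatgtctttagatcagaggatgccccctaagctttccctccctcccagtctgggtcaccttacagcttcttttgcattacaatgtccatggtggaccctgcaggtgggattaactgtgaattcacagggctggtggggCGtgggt
Brdt: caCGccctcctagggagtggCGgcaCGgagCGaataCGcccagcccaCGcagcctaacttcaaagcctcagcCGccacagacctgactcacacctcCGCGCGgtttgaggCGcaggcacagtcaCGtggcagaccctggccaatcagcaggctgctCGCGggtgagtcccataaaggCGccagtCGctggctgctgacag
Brdt held 16 CG dinucleotides, Utf1 13, L1td1 9, Tdgf1 7, Pou5f1 6 and Nanog 1. The octamer ATGCAAAT, the motif bound by Oct4, and its reverse complement ATTTGCAT were in none of the 6 windows, and the octamer was on either strand in 1.74% of 32851 RefSeq promoter windows of 300 bases. This says only that these exact letters are not in those 200 bases, and stretches that differ in 1 base were not counted. The Nanog window holds ttttgcat, which differs from ATTTGCAT in 1 base.

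Over all genes with a start in the table and inside their region (10466 genes), the number of CG dinucleotides in the 300-base window varied with the log2 ratio. The median was 22 where the ratio lay between -0.25 and 0.25 (9022 genes), 5 at 2-fold higher genes (29) and 7 at 2-fold lower genes (18). It was 19 at a log2 ratio of 0.25 to 0.5 (577 genes) and 13 at -0.5 to -0.25 (449 genes). Low numbers were thus found at the genes with the largest and the smallest ratios, while the 577 genes had a median close to that of the middle class. Genes with weak regions had fewer CG dinucleotides also in the middle class. Among genes with a mean of 2 to 20 tags/M the medians were 13 (1075 genes), 4.5 (18 genes) and 7 (11 genes).

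Naive pluripotency genes, which mark the ground state of ES cells, had a median log2 ratio of 0.26, with 12 of 14 above 0 (12 and 8) and none past 2-fold. The median was 0.12 in width and 0.05 in tags per kb. Tcl1 (0.45), Nr0b1 (0.44) and Dppa5a (0.42) had the largest ratios, and Klf5 held 198 and 252 tags/M. Dppa3 (27.5 and 23.7 tags/M) and Tfcp2l1 (81.8 and 74.0) were below 0. Esrrb and Nr5a2 had no peak listed at an end in either library. Formative and primed genes, which accompany the exit from that state, had a median of 0.20 with 10 of 12 above 0 (10 and 8). Etv5 led them with 103 and 140 tags/M, while Zic2 had 169 and 143.

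Signalling lists held a few genes that stood out. Of the FGF and MAPK genes 11 of 12 were above 0 (9 and 7), with a median of 0.13. The feedback inhibitor Spry4 held 106 and 179 tags/M and the target Etv4 71.7 and 120, while the receptor Fgfr1 held 79.7 and 80.1. The feedback inhibitors Dusp6 (144 and 187) and Spry2 (272 and 344) had ratios between these. Among Nodal and BMP genes 12 of 13 were above 0 (8 and 10), with a median of 0.11. The inhibitor Lefty1, a target of Nodal, held 14.5 and 24.1 tags/M, the BMP target Id3 30.4 and 50.1, and the ligand Nodal 109 and 146. The receptors had log2 ratios of -0.05 (Acvr1b), 0.03 (Acvr2b) and 0.06 (Bmpr1a), and the signal carriers 0.03 (Smad2), 0.09 (Smad3) and 0.05 (Smad4). The inhibitory Smad7 had 0.28. LIF and STAT3 genes had a median of -0.009, with 4 of 9 above 0 (2 and 3), and Wnt genes 0.03, with 8 of 13 (4 and 4).

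**Figure D5:**
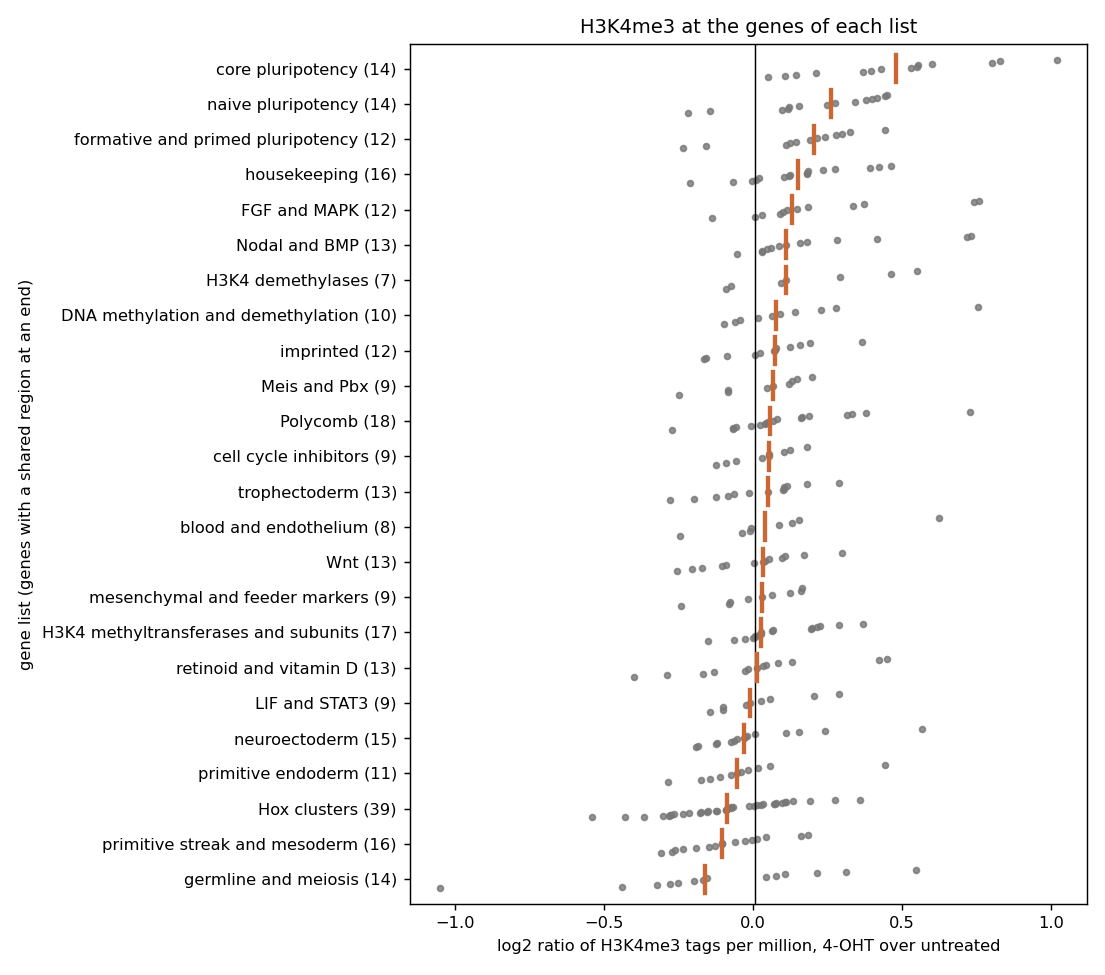
Log2 ratio of 4-OHT to untreated H3K4me3 tags/M (x axis) for each gene with a shared region at an end, by gene list (y axis, with the number of genes), for lists with at least 3 such genes. Grey points are genes, orange bars the list medians and the black line the median of all genes (0.006); the core pluripotency list lies highest, with all 14 genes above 0, and the germline list lowest at -0.16.

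Chromatin regulators were near the median of all genes apart from a few broad regions. The H3K4 methyltransferases and their subunits had a median of 0.03, with 13 of 17 above 0 (6 and 9), so the direction of this list depended on the scaling. Kmt2b held 87.9 and 102 tags/M, Kmt2c 131 and 126, Kmt2d 106 and 111, Setd1a 88.8 and 89.2 and Setd1b 208 and 268. Among the shared subunits Ash2l had 129 and 151 tags/M, Rbbp5 87.1 and 106 and Wdr5 86.5 and 99.0, and Men1, which tethers Mll1 to chromatin, 40.6 and 41.5. Of the H3K4 demethylases Kdm5b was higher by 0.55 and Kdm2b by 0.46 on the log2 scale, and 5 of 7 were above 0 (5 and 4). The Polycomb list had a median of 0.06 with 13 of 18 above 0 (7 and 8), again with a direction that depended on the scaling, and was led by Jarid2 (257 and 426 tags/M at the region of its start), while Ezh2, the catalytic subunit of PRC2, held 96.0 and 95.6. In the DNA methylation list, with 7 of 10 above 0 (5 and 7), Tet1 held 248 and 419 and Tet3 46.6 and 47.2. Dnmt3b, counted among the formative genes, held 52.2 and 59.6.

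Most lists of differentiation genes had medians slightly below 0, as did gene ends of like level: the median log2 ratio was -0.06 over all gene ends of 10 to 20 tags/M and -0.02 over those of 20 to 50. The Hox genes are classical targets of Mll1 in development. All 39 had a shared region, in 36 regions because neighbours share some, with a median log2 ratio of -0.09 and 14 of 39 above 0 (7 and 7). None passed 2-fold, and the extremes were Hoxb5, with 21.1 (19.3 to 23.0) and 14.5 (13.1 to 16.0) tags/M, and Hoxc9, with 8.905 and 11.4. Hoxa9, a gene long tied to Mll1, held 17.3 and 17.2. The Hox partners Meis and Pbx had a median of 0.07, with 6 of 9 above 0 (4 and 6). Primitive streak and mesoderm genes had a median of -0.10 with 4 of 16 above 0 (2 and 3): T held 28.5 and 26.5 tags/M, Mixl1 30.9 and 27.1, and Wnt3 22.2 and 17.9. Neuroectoderm genes had a median of -0.03 with 5 of 15 above 0 (4 and 6), and Olig2 stood out upward with 106 and 157. Primitive endoderm genes had -0.05 with 3 of 11 above 0 (1 and 5), and Sparc had the largest ratio at 0.44. The germline and meiosis list had the lowest median of those with 3 or more genes measured, -0.16, with 6 of 14 above 0 (4 and 6). Its testis gene Brdt, a bromodomain protein, was 2-fold lower with 7.36 (6.341 to 8.499) and 3.56 (2.88 to 4.36) tags/M, and Mael, of the piRNA pathway, was the highest of that list with 4.12 and 6.02.

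Housekeeping genes, which are used in every cell type, had a median of 0.15, with 13 of 16 above 0 (11 and 7), and Actb (81.1 and 112 tags/M), Rplp0 (107 and 144) and Polr2a (81.4 and 107) had the largest ratios. In tags per kb its median was -0.02. The remaining lists had medians between -0.18 and 0.07: cleavage-stage genes, of which only Duxf3 and Arg2 of 13 had a region, imprinted genes, retinoid and vitamin D genes, trophectoderm, blood and endothelium, mesenchymal markers and cell cycle inhibitors.

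Beyond the lists, the 15 genes with the largest ratios among those with 200 tags or more in both libraries together had log2 ratios of 1.62 to 2.88. Enah, an actin regulator, held 2.45 (1.88 to 3.15) and 18.1 (16.5 to 19.8) tags/M, the immune ligand Cd80 3.88 and 24.0, and the ubiquitin ligase Mkrn1 6.37 and 37.0. The other genes were Dusp27, Fblim1, Robo4, Brd3, Folr1, Gm37116, Acsbg3, Zfp532, Laptm5, Ooep, and 2410137M14Rik and H2-M5, which share a region. At Mkrn1 and Fblim1 the region lay at the downstream end and not at a start. Zfp532, a zinc finger gene, held 46.2 (43.6 to 48.9) and 154 (150 to 159) tags/M over 7812 and 24040 bp. Laptm5, a lysosomal protein of blood cells, held 18.3 and 59.3, and Ooep, an egg protein, 12.0 and 37.0. H3K4me2 was higher too at the regions of the first 3 genes, with 15.0 and 34.6 tags/M at Enah, 5.44 and 110 at Cd80 and 27.7 and 221 at Mkrn1. The 15 genes with the smallest ratios held few tags, at 5.07 to 12.5 tags/M in untreated cells. Stc1, a secreted glycoprotein hormone, held 6.65 (5.68 to 7.73) and 2.802 (2.20 to 3.52), Fam170b 12.5 and 5.87, and Selenbp1 7.08 and 3.33. H2bc1 and H2ac1, testis histones with 1 shared region, held 5.857 and 2.802. The others were Brdt, Cacna1e, Zbp1, Col24a1, Dctd, Pla2g12b, Ccdc172, Abcg8, Lrrc72 and Tac1.

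Width and tags did not always go together. Of the 10 genes with the largest width ratios, Smndc1, Ssu72 and Smarcad1 were 2-fold wider with much smaller differences in tags. Smndc1, a splicing factor, had a region of 4414 bp with 103 tags/M in untreated cells and 10835 bp with 124 after 4-OHT. Ssu72, a phosphatase of RNA polymerase II, had 3378 bp with 83.1 and 8172 bp with 101. Zfp985 had 2875 bp with 20.2 and 7866 bp with 56.1, where both differed. At the narrow end were Tac1, Msmo1, Optc and Prelp, which share a region, Pik3cd, Uggt1, Duoxa2, Tnfrsf13c, Crygs and H2bc1. Msmo1, an enzyme of cholesterol synthesis, had 6478 bp with 76.4 tags/M in untreated cells and 3398 bp with 53.8 after 4-OHT.

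Genes that lost every peak at their ends were weakly marked to begin with. The 10 with the highest peak score were BC051019, Lrp2bp, Rhox10, Tex46, Zfp474, Tspear, Wfdc12, Fcrl6, Krtap10-10 and C1s1, at 1.46 to 3.01 tags/M in untreated cells. Genes that gained a peak were led by Elobl, with 46.3 tags/M over 4018 bp, the antioxidant enzyme Gpx2 (5.79), Apol6 (6.25), Dglucy (5.30) and Spata21 (5.15). Tstd1 (3.48), Cldn15 (3.03), and Klk12 and Klk11, which share a region (2.27), followed. Elobl alone of these held over 1000 tags (1224), and its region also held an Mll1 peak.

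No chromosome stood apart in H3K4me3. The median log2 ratio of a chromosome minus that of all shared regions lay between -0.03 and 0.03. In H3K4me2 the range was the same to 2 decimals, and in H3K4me1 it ran from -0.04 to 0.16, with the X chromosome highest.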

How the data were processed

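H3K4me3 was measured by ChIP-seq in 1 untreated and 1 4-OHT library of mouse ES cells. Reads were processed with Bowtie2, SAMtools 1.5 and MACS2 against mm10, per the submitters' processing notes, whereas the file headers name MACS 1.4.2 with a p cutoff of 1e-05, a genome size of 2.7e+09, a band width of 300, local windows of 1000 and 10000 bp and at most 1 tag per position. The values in the peak lists deposited by the authors are the count of tags and the width in bp of each peak, and a score that grows with the negative log10 of the MACS p. Each list was called on a single library against input, per the file headers.

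Counts were scaled to 1000000 filtered tags of the library (tags/M), and peaks overlapping by 1 bp were joined into regions. Positions were compared with the protein-coding genes of GRCm38.p6 from RefSeq, the patch release of the same assembly as mm10. Other marks were read from whole peaks. The comparison was tried on simulated data whose peaks kept their untreated widths. Widening and joining of peaks were not part of that simulation. Members and gene lists were chosen with earlier results of these data known. Named beyond the lists, with at least 200 tags over both libraries, were the 15 genes with the largest and the 15 with the smallest tag ratio and 10 each by width, the 10 lost and 10 gained with the highest score, and of regions away from gene ends 10 each by ratio and 5 each lost and gained. A gene that this rule names is not reported here. Python 3.11.15, numpy 2.4.6, pandas 2.3.3, scipy 1.17.1 and matplotlib 3.10.9 were used.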

Additional observations from a re-analysis of the deposited data

Results flagged for a closer look

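Peaks on chromosome Y were outside the comparison. The untreated H3K4me3 list held 23 of them with 189 tags/M filtered tags, and the 4-OHT list held 23 with 192. They drew attention because these peaks lie in data that no comparison above used.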

How the results depend on the processing

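Of the alternatives tried, the median width ratio at gene ends stayed within its interval in 9 of 9, at 0.044 to 0.048, and the median tag ratio there in 10 of 12. The small medians of the tag ratio, -0.012 away from gene ends and 0.0018 at them, changed sign with the setting: the first was above 0 with equal numbers of peaks or with 100 tags or more, and the second below 0 when scaled to the tags in peaks or to width. Higher regions outnumbered lower ones under each of the alternatives, by 1.68 to 38.6 times. With only peaks of a score of at least 100, 7.54% of untreated peaks were lost and 13.8% of 4-OHT peaks gained, 1169 regions were higher and 165 lower, and away from gene ends the median log2 ratio was -0.019 in tags and 0.030 in width. With 52889 peaks in each list, 10.6% were lost and 12.5% gained, and the medians away from gene ends were 0.00017 and 0.037. Joining peaks less than 1 kb apart gave 13.5% gained and -0.020 in tags away from gene ends. Scaled to the tags in peaks, the medians were -0.084 at gene ends and -0.097 away from them. In tags per kb, 171 regions were higher and 74 lower, with medians of -0.054 and -0.033. With 100 tags or more as the mean, 1082 were higher and 28 lower, with 0.016 in tags and 0.052 in width away from gene ends. At 1.5-fold, 4775 were higher and 2846 lower. Fewer regions or a looser fold account for the counts by construction, and the cause of the other differences was not tested. No paired analysis was possible because each group has 1 library and the labels carry no replicate numbers, and no replicate could be left out for the same reason. Weak peaks limit presence: lost and gained regions held a median of 30 and 38 tags.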
